A study of Mus musculus with 6 samples.

Results

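The 40 genes described here encode the enzymes that build and attach N-linked glycans and the enzymes and transporters that supply their sugars. They were taken as a list of gene symbols of known role, with no threshold on expression, and matched by name to mouse gene annotation. The list was drawn up with earlier results of these data known. All 40 were found among the 55487 genes of the count table, and all 40 had enough reads to be tested, among 16957 tested genes. RNA was sequenced from the ovaries of 3 GalTKO samples, labelled GalT-/-, and 3 wildtype samples. GalTKO mice lack Galt, the galactose-1-phosphate uridylyltransferase of the Leloir pathway, the enzyme missing in people with classic galactosemia. Every sample came from mice of the strain given as cbl/6-ola/129 at postnatal day 49. GalTKO and wildtype mice alike had eaten a 2.5% galactose diet for 4 weeks, so the comparison is of genotypes on a galactose load, with no group on ordinary chow. Neither the kind of Galt allele nor the number of animals behind a sample is given in the labels, and p-values therefore measure only the spread between these samples. The labels do not state estrous stage or litter.

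N-glycosylation starts on the cytosolic face of the endoplasmic reticulum, where sugars are added one after another to the lipid dolichol. The lipid-linked oligosaccharide is flipped into the lumen, lengthened with mannose and glucose, and moved as a block onto asparagines of new proteins by the oligosaccharyltransferase complex. Trimming by glucosidases and mannosidases, a folding check, and branching in the Golgi follow. The sugars come from activated donors such as UDP-N-acetylglucosamine, GDP-mannose, UDP-galactose and CMP-sialic acid. Galt itself makes UDP-galactose from UDP-glucose and galactose-1-phosphate, and abnormal N-glycans have been described in patients with the disease. In the ovary, the zona pellucida proteins and the gonadotropin receptors are among the N-glycosylated proteins.

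Libraries held 19232486 to 25729564 counts in GalTKO ovaries and 23685626 to 24861338 counts in wildtype ovaries. Levels are given as CPM, counts scaled by library size and trimmed mean of M-values, with replicates in the order 1, 2, 3. Galt was at 0.155, 0.259 and 0 CPM in the GalTKO libraries, against 17.8, 16.1 and 17.4 CPM in the wildtype libraries. Galt thus fell in GalTKO ovaries, in 3 of 3 libraries (edgeR's quasi-likelihood test, adjusted p = 0.000153, log2 fold change -6.82 ± 0.41 SE).

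Ovary cell types were checked by marker lists, none of which had a marker at 0. Macrophage markers summed to 404 to 459 CPM in GalTKO ovaries and 626 to 760 CPM in wildtype ovaries, and 6 of 10 fell at an adjusted p under 0.05. Endothelial markers summed to 440.0 to 485 CPM in GalTKO ovaries and 549 to 689 CPM in wildtype ovaries, with 3 of 8 falling. Theca and interstitial markers summed to 7578 to 11682 CPM in GalTKO and 12435 to 18697 CPM in wildtype ovaries, with 1 of 8 falling. Corpus luteum markers, which share 3 genes with them, summed to 9191 to 14063 CPM in GalTKO and 14952 to 20068 CPM in wildtype ovaries, with 1 of 8 falling. The shared genes were Star, Cyp11a1 and Hsd3b1. Cyp11a1 and Hsd3b1 had the highest means, at 3415 and 3640 CPM in GalTKO and 5517 and 5518 CPM in wildtype ovaries. The lower theca sum thus rests mainly on genes of both lists. Of the 8 theca and interstitial log2 fold changes, 5 were negative, and Cyp17a1, Insl3 and Nr5a1 were positive with overlapping groups. Cyp17a1 was at 400, 7.29 and 296 CPM in GalTKO libraries, against 120, 132 and 119 CPM in wildtype libraries. Granulosa markers summed to 8445 to 10207 CPM in GalTKO and 8327 to 9905 CPM in wildtype ovaries, with 1 of 10 rising and 1 of 10 falling. Oocyte markers summed to 261 to 303 CPM in GalTKO and 225 to 346 CPM in wildtype ovaries, and stromal and smooth muscle markers to 3021 to 5751 CPM in GalTKO and 3799 to 4189.9 CPM in wildtype ovaries, with none called in either list by edgeR. At an unadjusted p under 0.05 there were 3 oocyte markers, 1 higher and 2 lower in GalTKO ovaries, and 0 stromal ones, against 17.1% of all genes tested. DESeq2 called 1 oocyte marker, Oosp1, and 0 stromal ones. It also called 8 macrophage, 4 endothelial, 2 theca and interstitial, 4 corpus luteum and 2 granulosa markers. Over all genes, edgeR called 2.55% at an adjusted p under 0.05, and DESeq2 called 1024 of 30937. The mitochondrial share of counts was 2.22% to 3.53% in GalTKO libraries and 1.37% to 1.97% in wildtype libraries. In whole ovary, fewer cells of a type and less RNA per cell cannot be told apart, and the part of these differences in the values below was not tested.

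None of the 40 N-glycan genes passed the test between genotypes. At an adjusted p under 0.05, edgeR's quasi-likelihood test called 0 of 40, against 2.55% of all genes tested, and DESeq2 also called 0. At an unadjusted p under 0.05 there were 4 of 40, or 10%, against 17.1% of all genes. Pgm3 and Gmppa were the 2 higher in GalTKO ovaries, against 8.19% of all genes, and Alg2 and Man1a the 2 lower, against 8.9% of all genes. Groups that did not overlap were counted in each direction. Dpm1, Pgm3, Pmm2 and Gmppa were the 4 members above every wildtype library in all GalTKO libraries, against 11.8% of all genes. Alg2, Stt3b, Man1a and Mgat2 were the 4 below, against 12% of all genes. The shares of members were near or below these backgrounds.

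The log2 fold changes of GalTKO over wildtype ran from -0.28 for Man1a to 0.39 for Pgm3, with a median of -0.01 over the 40 members and 0.02 over all genes tested. There were 19 positive and 21 negative values. A missed threshold does not by itself show that levels were alike, so the intervals matter here. The 95% interval lay within 1.5-fold in either direction for 37 of 40 members, and within 2-fold for all 40. Over all genes tested it lay within 1.5-fold for 8547 of 16957 and within 2-fold for 12217. Among the 11652 tested genes within the members' range of expression, it lay within 1.5-fold for 8212 and within 2-fold for 10610. Dpm1, Pgm3 and Uap1 were the 3 with an interval reaching beyond 1.5-fold. The outermost bounds were a 0.637-fold level for Uap1 and a 1.82-fold level for Dpm1. Differences were small in size as well. Their median, with the sign dropped, was 0.08 for members on the log2 scale, against 0.17 for all genes and 0.13 for the 11652 tested genes within the members' range of expression. The spread between replicates was also smaller, with a median within-group SD of 0.11 for members, 0.20 for all genes and 0.15 for genes in the same range. The difference was under 0.2 on the log2 scale for 32 of 40 members, or 80%, and for 55% of all genes.

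**Figure D1:**
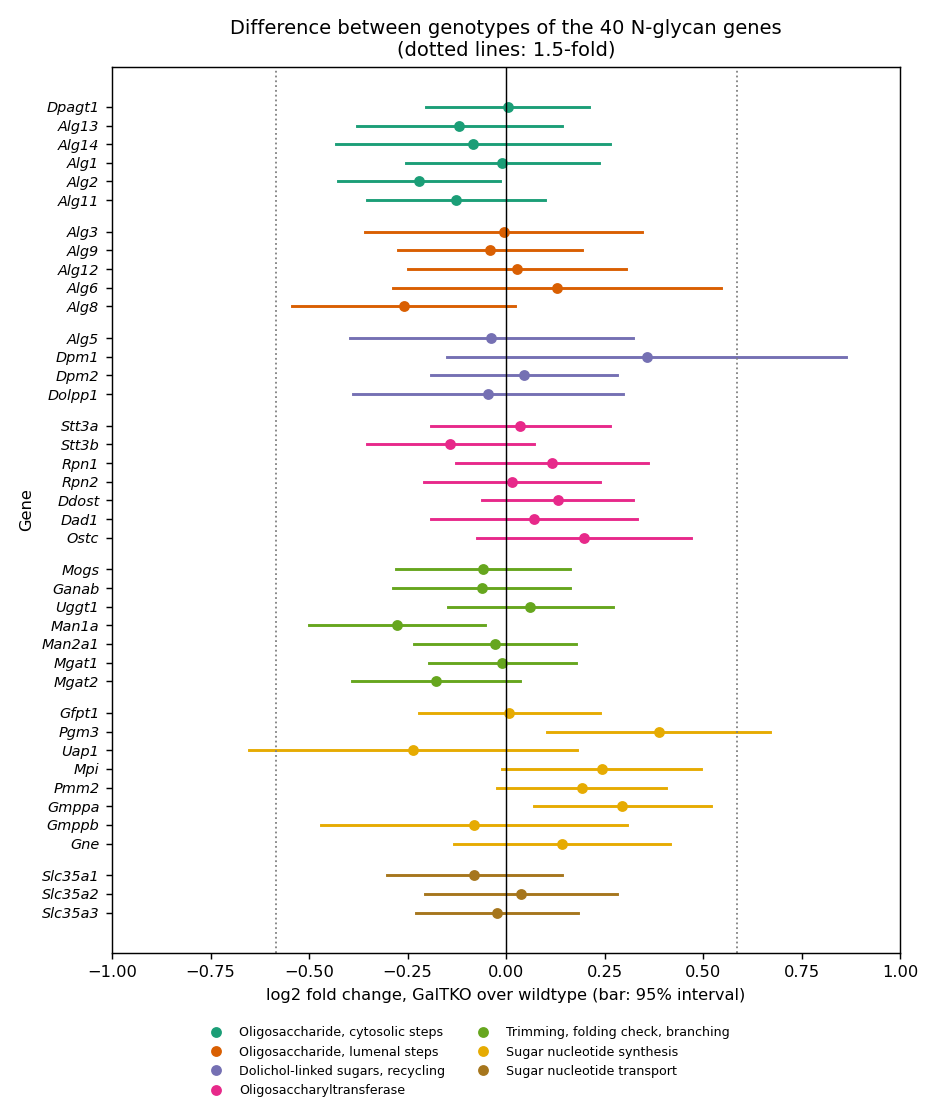
Each point is the log2 fold change of GalTKO over wildtype ovaries for 1 of the 40 genes, coloured by role, with its 95% interval as a bar and dotted lines at 1.5-fold (3 libraries per genotype). All 40 intervals stay within 2-fold, and those of Dpm1, Pgm3 and Uap1 reach past a dotted line.

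**Figure D2:**
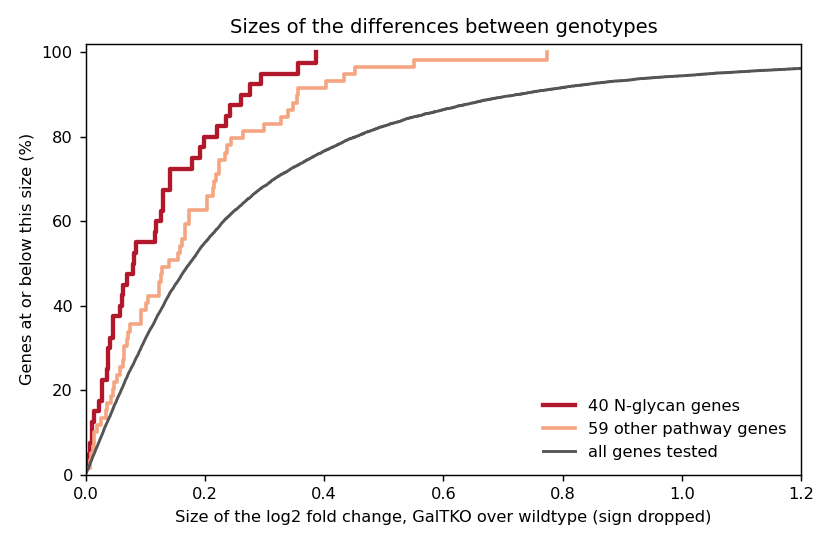
Cumulative share of genes (%) against the size of the log2 fold change between GalTKO and wildtype ovaries, sign dropped, for the 40 N-glycan genes, 59 other pathway genes and all 16957 genes tested. The curve of the 40 genes reaches 95% at 0.3, where that of all genes is at 68.4%.

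Of the 6 genes for the cytosolic steps of the lipid-linked oligosaccharide none was called, and 5 of 6 intervals included 0. The median log2 fold change was -0.10, with 5 of 6 values negative. Alg2, which adds the second and the third mannose, had the smallest p of the group. It was at 79.5, 73.5 and 68.3 CPM in GalTKO libraries, against 86.0, 80.7 and 91.1 CPM in wildtype libraries. Every GalTKO library lay below every wildtype library, but the difference of -0.22 ± 0.09 (SE; 95% interval -0.43 to -0.01) missed the adjusted threshold (edgeR adjusted p = 0.263). Alg11, which adds the last mannoses on the cytosolic side, was at 60.5, 63.5 and 52.7 CPM in GalTKO libraries, against 62.3, 61.2 and 69.4 CPM in wildtype libraries. These groups overlapped, and the difference was -0.13 ± 0.10. Dpagt1, the enzyme that commits dolichol phosphate to glycan assembly and the target of tunicamycin, differed by 0.00 ± 0.09. Alg13 and Alg14, the partners that add the second N-acetylglucosamine, differed by -0.12 ± 0.11 and -0.08 ± 0.15. Alg1, which adds the first mannose, differed by -0.01 ± 0.11.

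Lumenal steps were centred on no difference, with a median of -0.01. Alg8, which adds the second glucose, was at 12.5, 14.0 and 12.9 CPM in GalTKO libraries, against 16.6, 14.0 and 16.6 CPM in wildtype libraries. Wildtype replicate 2 fell inside the GalTKO range, and the difference of -0.26 ± 0.12 was not called (edgeR adjusted p = 0.335). Alg6, which adds the first glucose just before Alg8 acts, went the other way in value. It was at 8.90, 13.4 and 13.8 CPM in GalTKO libraries, against 11.7, 10.6 and 10.6 CPM in wildtype libraries. GalTKO replicate 1 lay below all wildtype libraries and the others above them, with a difference of 0.13 ± 0.18 over the 3 GalTKO libraries and 0.31 without replicate 1. The lumenal mannosyltransferases Alg3, Alg9 and Alg12 differed by -0.01 ± 0.15, -0.04 ± 0.10 and 0.03 ± 0.12.

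Of the genes for dolichol-linked sugars, Dpm1, the catalytic subunit of dolichol-phosphate-mannose synthase, had the widest interval of all 40. It was at 3.83, 4.10 and 5.93 CPM in GalTKO libraries, against 3.60, 3.55 and 3.64 CPM in wildtype libraries. All GalTKO values were the higher ones, yet they rest on 99, 95 and 114 reads in GalTKO libraries, against 90, 84 and 84 reads in wildtype libraries. The difference was 0.36 ± 0.22 (95% interval -0.15 to 0.86; edgeR adjusted p = 0.465) and 0.14 without GalTKO replicate 3. Dpm1 shares 895 exon bases on the same strand with the gene model Gm20716, so its count may miss reads that fit both. Dpm2, the regulatory subunit that stabilises Dpm1, was at 26.1, 22.8 and 24.7 CPM in GalTKO libraries, against 24.0, 22.1 and 25.2 CPM in wildtype libraries. Those groups overlapped, with a difference of 0.05 ± 0.10. Alg5, which makes dolichol-phosphate-glucose, and Dolpp1, which recycles dolichol pyrophosphate, differed by -0.04 ± 0.16 and -0.05 ± 0.15.

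The oligosaccharyltransferase, which carries out the transfer to protein, took the most reads of the 7 role groups, and 6 of its 7 values were positive with a median of 0.07. Ostc, a subunit of the complex that works at the translocon, was at 92.3, 66.7 and 76.8 CPM in GalTKO libraries, against 68.9, 67.0 and 69.7 CPM in wildtype libraries. GalTKO replicate 1 stood highest and replicate 2 lowest, and the difference of 0.20 ± 0.12 was 0.07 without replicate 1. Ddost, a subunit shared by all forms of the complex, was at 260.2, 270.0 and 235.0 CPM in GalTKO libraries, against 232, 230.3 and 236 CPM in wildtype libraries. GalTKO replicate 3 lay inside the wildtype range, and the difference was 0.13 ± 0.08. The scaffold subunits Rpn1 and Rpn2 differed by 0.12 ± 0.11 and 0.01 ± 0.10, and Dad1, named for cell death upon its loss, by 0.07 ± 0.11.

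The enzyme exists in a form built on Stt3a, which glycosylates proteins as they enter the translocon, and a form built on Stt3b, which acts on sites that were skipped. Stt3a was at 357, 312 and 294 CPM in GalTKO libraries, against 329.9, 297 and 314 CPM in wildtype libraries. Stt3b was at 276, 274 and 236 CPM in GalTKO libraries, against 302, 277 and 287 CPM in wildtype libraries. Within each library, the log2 ratio of Stt3a to Stt3b counts was 0.37, 0.19 and 0.32 in GalTKO ovaries, against 0.13, 0.10 and 0.13 in wildtype ovaries. The ratio was therefore higher in 3 of 3 GalTKO libraries, by 0.18 on the log2 scale. A two-sided exact permutation test gave p = 0.1, the smallest value that 3 against 3 samples allow, and 0.267 after adjustment over the 4 ratios tested. Such a ratio needs no scaling between libraries, but by itself it does not say which of the genes moved. Stt3a differed by 0.04 ± 0.10, with overlapping groups. Stt3b differed by -0.14 ± 0.09 (edgeR adjusted p = 0.493), with all GalTKO libraries below the wildtype ones, narrowly.

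The other 3 ratios overlapped between genotypes. Gmppa to Gmppb differed by 0.39 on the log2 scale, at 1.35 ± 0.24 in GalTKO and 0.96 ± 0.19 in wildtype ovaries (SD, n = 3 each; exact permutation p = 0.2, adjusted 0.267). Man1a to its paralog Man1a2 differed by -0.21, at -1.43 ± 0.19 in GalTKO and -1.22 ± 0.13 in wildtype ovaries (SD, n = 3 each; exact permutation p = 0.2, adjusted 0.267). Gfpt1 to Gfpt2 differed by -0.22, at 2.52 ± 0.31 in GalTKO and 2.74 ± 0.11 in wildtype ovaries (SD, n = 3 each; exact permutation p = 0.4, adjusted 0.4).

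In the trimming and branching group, 6 of 7 values were negative and the median was -0.06. Man1a, a Golgi mannosidase that cuts mannose from the trimmed glycan, had the lowest log2 fold change of the 40 members. It was at 62.5, 71.7 and 74.2 CPM in GalTKO libraries, against 78.3, 83.2 and 90.7 CPM in wildtype libraries. The groups did not overlap, and the difference was -0.28 ± 0.10 (95% interval -0.50 to -0.05; edgeR adjusted p = 0.204). Mgat2, which starts the second branch of complex glycans, was at 97.8, 81.1 and 92.4 CPM in GalTKO libraries, against 100.5, 98.6 and 108 CPM in wildtype libraries. Here too all GalTKO values were the lower ones, narrowly, with a difference of -0.18 ± 0.09 (edgeR adjusted p = 0.382). Mgat1, whose step must precede that of Mgat2, differed by -0.01 ± 0.08, and the Golgi mannosidase Man2a1, which acts between them, by -0.03 ± 0.09. The glucosidases Mogs and Ganab differed by -0.06 ± 0.10 each, and Uggt1, which puts glucose back on misfolded glycoproteins, by 0.06 ± 0.09.

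**Figure D3:**
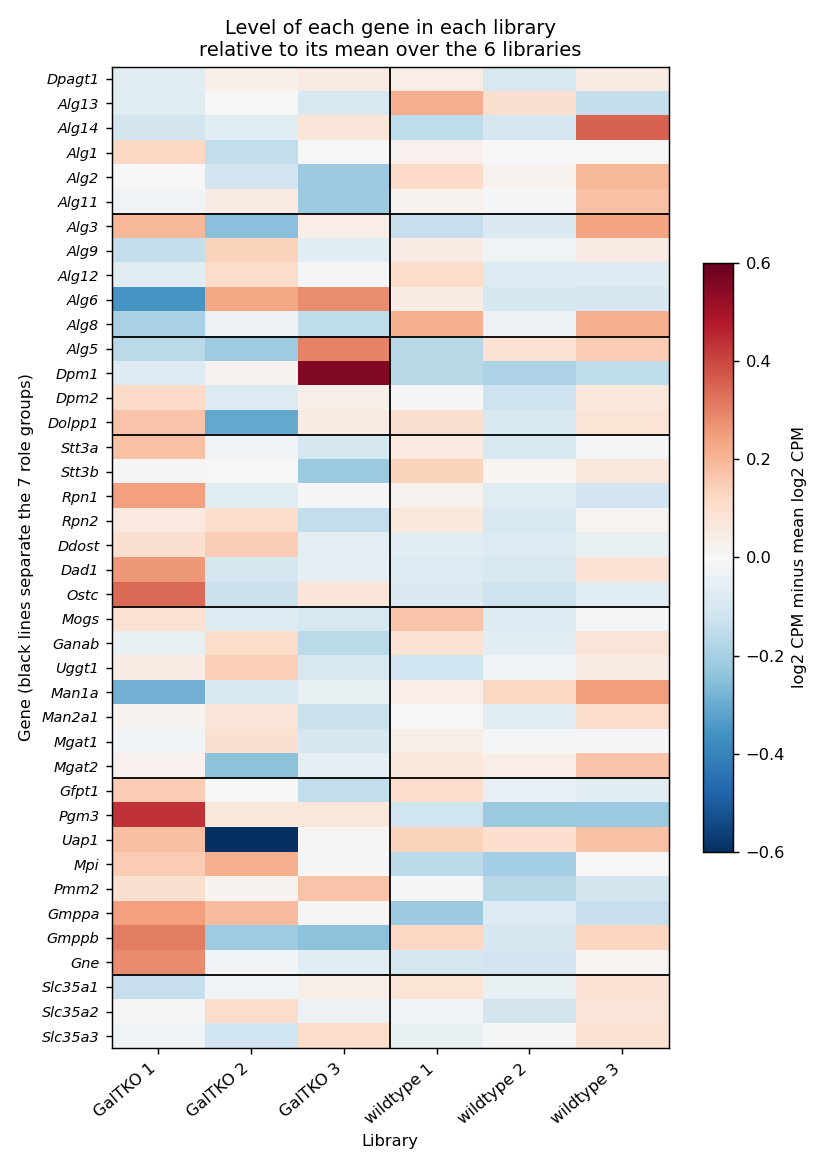
Each cell is the log2 CPM of 1 of the 40 genes in 1 library minus that gene's mean over the 6 libraries (GalTKO 1 to 3 left of the black line, wildtype 1 to 3 right of it), with horizontal lines between the 7 role groups. Pgm3 and Gmppa are redder in all GalTKO libraries and Alg2 and Man1a bluer, and GalTKO replicate 1 is the reddest column for 6 of 8 sugar nucleotide synthesis genes.

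Sugar nucleotide synthesis held both of the members with an unadjusted p under 0.05 that were higher in GalTKO ovaries, and 6 of its 8 values were positive with a median of 0.17. Pgm3, the phosphoacetylglucosamine mutase on the way to UDP-N-acetylglucosamine, had the smallest p of all 40. It was at 37.8, 29.2 and 29.3 CPM in GalTKO libraries, against 25.7, 24.0 and 24.0 CPM in wildtype libraries. All GalTKO libraries lay above the wildtype ones, by 0.39 ± 0.12 on the log2 scale (95% interval 0.10 to 0.67; edgeR adjusted p = 0.162). GalTKO replicate 1 was the highest, and without it the difference was 0.25. Pgm3 overlaps Dop1a on the opposite strand over 28.3% of its exon bases. Whether reads were counted by strand is not stated, and Dop1a differed by 0.11 ± 0.09.

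Other genes of hexosamine and sialic acid supply had values on either side of 0. Gfpt1, the rate-limiting enzyme of the hexosamine pathway, differed by 0.01 ± 0.10. Uap1, which makes UDP-N-acetylglucosamine from the product of Pgm3, was at 36.6, 21.4 and 32.5 CPM in GalTKO libraries, against 35.5, 34.6 and 36.5 CPM in wildtype libraries. A single low library, GalTKO replicate 2, carried its difference of -0.24 ± 0.18, which was -0.04 without it. Gne, the first enzyme of sialic acid synthesis, was at 30.3, 24.5 and 23.7 CPM in GalTKO libraries, against 23.1, 23.0 and 25.2 CPM in wildtype libraries. Again GalTKO replicate 1 stood apart, and the difference of 0.14 ± 0.12 was 0.02 without it.

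On the GDP-mannose branch, Gmppa had the second smallest p of the members. Gmppa is the regulatory subunit through which GDP-mannose inhibits the pyrophosphorylase, and Gmppb is its catalytic partner. Gmppa was at 41.9, 40.2 and 35.6 CPM in GalTKO libraries, against 30.4, 33.4 and 32.2 CPM in wildtype libraries. Its groups did not overlap, and the difference was 0.29 ± 0.10 (95% interval 0.07 to 0.52; edgeR adjusted p = 0.180). Gmppb was at 19.6, 13.7 and 13.4 CPM in GalTKO libraries, against 17.3, 14.8 and 17.4 CPM in wildtype libraries. Those groups overlapped, with a difference of -0.08 ± 0.17, and Gmppb shares 33.6% of its exon bases with Rnf123 on the opposite strand, which differed by -0.26 ± 0.17. Mpi, which turns fructose-6-phosphate into mannose-6-phosphate, differed by 0.24 ± 0.11 (edgeR adjusted p = 0.312). Pmm2, the mutase whose loss is the commonest congenital disorder of glycosylation in humans, differed by 0.19 ± 0.09 (edgeR adjusted p = 0.348), with all GalTKO libraries above the wildtype ones.

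The Golgi transporters each differed by less than 0.1 on the log2 scale. Slc35a1, which carries CMP-sialic acid, was at 24.0, 26.1 and 27.1 CPM in GalTKO libraries, against 27.9, 25.6 and 28.0 CPM in wildtype libraries. Slc35a2, the transporter of UDP-galactose, the sugar donor that Galt makes, was at 19.2, 20.8 and 18.8 CPM in GalTKO libraries, against 19.0, 17.9 and 20.4 CPM in wildtype libraries. Both sets of libraries overlapped, with differences of -0.08 ± 0.10 for Slc35a1 and 0.04 ± 0.11 for Slc35a2 (95% interval -0.20 to 0.28). Slc35a3, a carrier of UDP-N-acetylglucosamine, differed by -0.02 ± 0.09.

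Levels can be compared between genes only per length of exon, as TPM computed from the counts over exon length. Values are means ± SD over 3 libraries. Ddost was the highest of the 40, at 332 ± 35.6 TPM in GalTKO and 315 ± 13.2 TPM in wildtype ovaries, followed by Rpn1 at 223 ± 29.8 TPM in GalTKO and 214 ± 14.3 TPM in wildtype ovaries. Stt3b was the higher of the catalytic subunits, at 171 ± 20.9 TPM in GalTKO and 196 ± 14.6 TPM in wildtype ovaries, against Stt3a at 99.1 ± 12.5 TPM in GalTKO and 101 ± 8.33 TPM in wildtype ovaries. Among the members for the lipid-linked steps, Alg2 was the highest, at 59.03 TPM in GalTKO and 71.5 TPM in wildtype ovaries. Dpm1 was the lowest of the 40, at 1.69 ± 0.351 TPM in GalTKO and 1.38 ± 0.058 TPM in wildtype ovaries, and Alg6 the next, at 3.87 ± 0.833 TPM in GalTKO and 3.69 ± 0.306 TPM in wildtype ovaries. Its partner in sequence, Alg8, was at 13.0 ± 1.09 TPM in GalTKO and 16.3 ± 2.05 TPM in wildtype ovaries. These levels depend on the exon length assumed. Dpm1 and Alg6 were still the lowest over the longest coding transcript. The count of Dpm1 may miss reads shared with Gm20716, so its level may be too low under either length. The order of the top genes was less clear over the longest coding transcript. Ddost was then at 260.3 TPM in GalTKO and 245 TPM in wildtype ovaries, and Rpn2 at 253 TPM in GalTKO and 258 TPM in wildtype ovaries. Ostc was at 71.5 TPM in wildtype ovaries over all annotated exons but 143 TPM over its longest coding transcript.

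**Figure D4:**
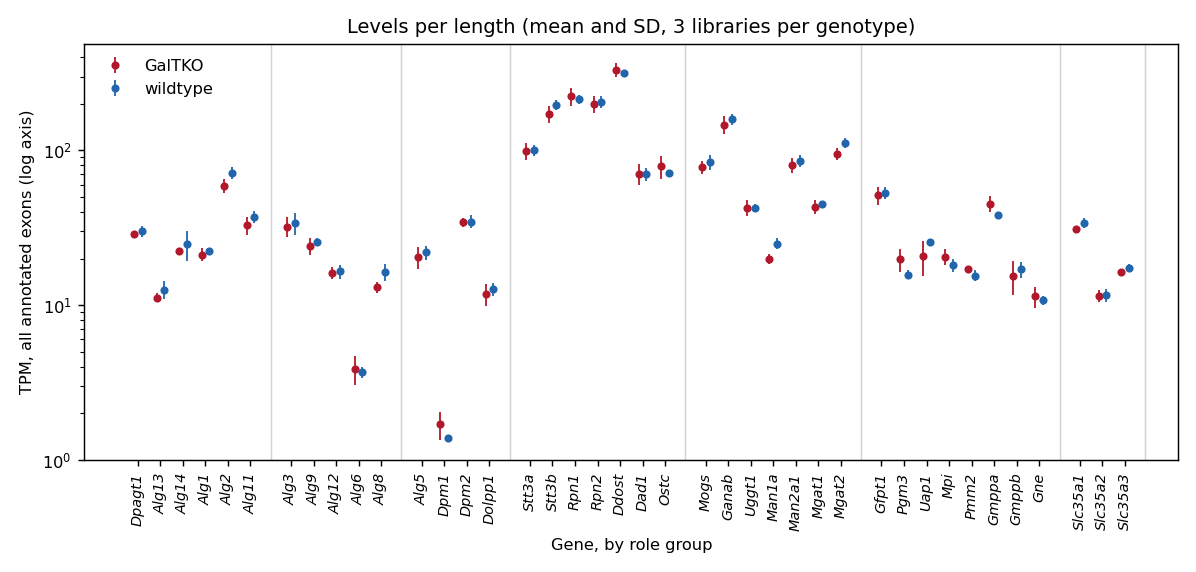
Mean TPM over all annotated exons with its SD (log axis, 3 libraries per genotype) for the 40 genes, ordered by role, with GalTKO left of wildtype for each gene. Ddost is highest at 332 TPM in GalTKO and 315 TPM in wildtype ovaries, and the genotypes lie close to each other at every level. Dpm1, whose count may miss reads shared with Gm20716, is lowest.

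Among 59 further genes of these pathways, chosen by role, none passed edgeR's test at an adjusted p under 0.05, and 13 had an unadjusted p under 0.05, with 7 higher and 6 lower in GalTKO ovaries. That is 22% of the 59, against 17.1% of all genes tested. DESeq2 called 2 of them, Srd5a3 included. Without the filter on low counts, edgeR called 3, Ost4 and Man2a2 included. The median of the 59 was -0.01, like that of the members.

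Srd5a3, the reductase that completes dolichol, was at 17.9, 19.1 and 16.9 CPM in GalTKO libraries, against 24.9, 23.2 and 23.1 CPM in wildtype libraries. The groups did not overlap, and the log2 difference was -0.40 ± 0.10 (edgeR adjusted p = 0.0926; DESeq2 adjusted p = 0.0457). Nus1, a subunit of the enzyme that makes the dolichol chain, was at 84.1, 78.3 and 83.8 CPM in GalTKO libraries, against 95.8, 94.7 and 96.2 CPM in wildtype libraries. Its difference was -0.22 (edgeR adjusted p = 0.184), also without overlap.

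Of the 5 other oligosaccharyltransferase subunits, Ost4 and Tmem258 had the smallest p, and neither was called with the filter on low counts and all 6 libraries (without GalTKO replicate 2, Ost4 had an edgeR adjusted p of 0.039). The other 3, Krtcap2, Magt1 and Tusc3, overlapped between genotypes. Ost4 was at 76.7, 68.1 and 86.8 CPM in GalTKO libraries, against 51.6, 62.9 and 57.0 CPM in wildtype libraries. Tmem258 was at 47.1, 48.8 and 55.2 CPM in GalTKO libraries, against 36.6, 42.3 and 39.8 CPM in wildtype libraries. Neither gene overlapped between genotypes, with differences of 0.43 for Ost4 and 0.35 for Tmem258 (edgeR adjusted p = 0.107 and 0.128). Ost4 lies over Agbl5 on the opposite strand for 53.2% of its exon bases, and Agbl5 differed by 0.12 ± 0.13.

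Of the Golgi mannosidases outside the 40, Man1c1 was at 26.4, 25.1 and 23.2 CPM in GalTKO libraries, against 30.3, 31.6 and 31.9 CPM in wildtype libraries. Man2a2 was at 209, 295 and 230.5 CPM in GalTKO libraries, against 166, 174 and 197 CPM in wildtype libraries. The log2 differences were -0.33 for Man1c1 and 0.45 for Man2a2 (edgeR adjusted p = 0.126 and 0.144), and both were free of overlap. Man2a2 shares 4.14% of its exon bases with Hddc3 on the opposite strand, which differed by 0.69 ± 0.18. Slc35a5, a nucleotide sugar transporter of the same family as the members, was at 41.0, 42.9 and 36.6 CPM in GalTKO libraries, against 31.3, 31.6 and 31.4 CPM in wildtype libraries, a difference of 0.35 (edgeR adjusted p = 0.104).

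GalTKO replicate 1 was the highest of the 6 libraries for 13 of 40 members, or 32.5%, against 17.4% of all genes tested. Those 13 included 6 of the 8 sugar nucleotide synthesis genes and 4 of the 7 oligosaccharyltransferase subunits. The same library was the highest for 13 of 15 listed chaperones and stress factors of the endoplasmic reticulum, whose CPM summed to 6831, 4089 and 4424 in GalTKO libraries, against 4907, 4179 and 4073 in wildtype libraries. None of the 15 was called by edgeR or by DESeq2, and 2 had an unadjusted p under 0.05, Creld2 and Dnajb11, which is 13.3% against 17.1% of all genes tested. Without GalTKO replicate 1, the median log2 fold change was 0.05 in place of 0.19 for the chaperones, -0.01 in place of 0.07 for the oligosaccharyltransferase and 0.11 in place of 0.17 for sugar nucleotide synthesis.

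**Figure D5:**
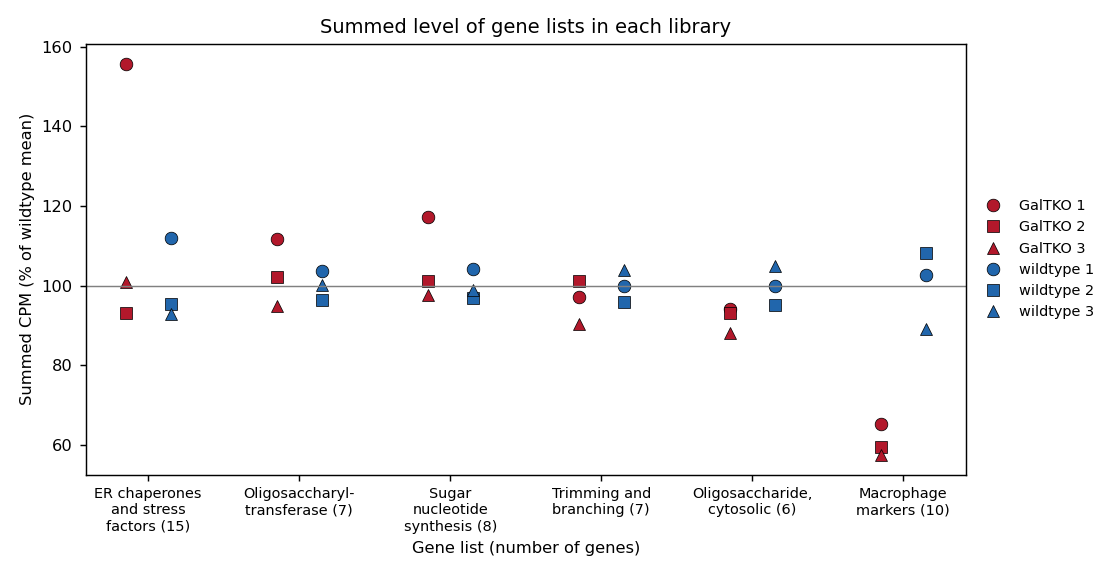
Summed CPM of 6 gene lists in each library as a percentage of the wildtype mean (red GalTKO, blue wildtype; circle, square and triangle are replicates 1, 2 and 3). The red circle, GalTKO replicate 1, stands apart for the chaperones at 6831 CPM and is also the highest library for the oligosaccharyltransferase and sugar nucleotide synthesis, while macrophage markers are lower in all GalTKO libraries.

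Many chaperone promoters carry the endoplasmic reticulum stress element, a composite site bound by NF-Y and ATF6, and it was searched for as CCAAT, a gap of any 9 bases and CCACG, on both strands in the 250 bases before each start. RefSeq promoters (GRCm38.p6) were at hand for 35 of the 40 members. The element was found in 1 of these 35, against 5 of 13 chaperones and 0.17% of 11742 tested genes. Its CCAAT part alone was in 51.4% of member promoters and 39.9% of those of tested genes. The single member was Alg12, and the match lies in the stretch between Alg12 and Creld2, a stress-induced chaperone gene that runs the other way from a start 328 bases off. That stretch is shown with those of Hspa5, the chaperone BiP, of Hsp90b1, which has 2 matches of which the nearer is shown, and of the lectin chaperones Calr and Canx, which hold glycoproteins during folding. Capitals mark the element, and each line is written 5′ to 3′ on the strand that reads it.
Alg12 and Creld2, chr15:88819500-88819558, minus strand: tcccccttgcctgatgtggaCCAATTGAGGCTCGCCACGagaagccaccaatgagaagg
Hspa5, chr2:34772005-34772063, plus strand: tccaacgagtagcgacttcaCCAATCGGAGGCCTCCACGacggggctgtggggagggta
Hsp90b1, chr10:86705513-86705571, plus strand: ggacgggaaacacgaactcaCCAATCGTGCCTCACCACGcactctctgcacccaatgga
Calr, chr8:84847055-84847113, plus strand: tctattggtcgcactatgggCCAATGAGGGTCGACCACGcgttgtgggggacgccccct
Canx, chr11:50325780-50325838, minus strand: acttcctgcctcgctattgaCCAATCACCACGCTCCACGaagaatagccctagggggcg

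Alg12 and Creld2, on either side of the shared stretch, can be set beside each other in each library. Creld2 was at 66.3, 41.4 and 44.8 CPM in GalTKO libraries, against 38.8, 34.4 and 32.2 CPM in wildtype libraries. Alg12, the lumenal mannosyltransferase, was at 13.1, 14.8 and 13.6 CPM in GalTKO libraries, against 14.8, 12.9 and 13.0 CPM in wildtype libraries. Creld2 was thus highest in GalTKO replicate 1, where Alg12 was not, and its difference of 0.53 ± 0.18 missed the threshold (edgeR adjusted p = 0.191). The log2 ratio of Creld2 to Alg12 counts was 2.34, 1.49 and 1.72 in GalTKO libraries, against 1.39, 1.41 and 1.31 in wildtype libraries. Calr differed by -0.04 and Canx by -0.05 on the log2 scale, and Hspa5 by 0.09. Hsp90b1 differed by 0.38 ± 0.19 (edgeR adjusted p = 0.360), with all GalTKO libraries above the wildtype ones and GalTKO replicate 1 the highest. Dnajc3 and Pdia6, the other listed chaperones with the element, differed by 0.19 ± 0.13 and 0.30 ± 0.15, with overlapping groups.

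Of the members, 3 lie within 20 Mb of Galt on chromosome 4, a window chosen because strain alleles linked to the Galt locus could lie there. How far such alleles reach is not given in the labels, and Alg6 and Ddost lie farther out on the same chromosome. Gne is 2.28 Mb and Alg2 5.71 Mb above Galt in coordinate, and Slc35a1 is 7.09 Mb below it. Their differences were given above, and none of the 3 was called. In the same window, 7 of 194 tested genes were called, against 433 of 16957, or 2.55%, of all genes tested. An unadjusted p under 0.05 was found for 20.1% of the genes in the window, near the 17.1% of all genes. Whether linked alleles touch the level of Alg2 was not tested.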

How the data were processed

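Total RNA of 6 ovary samples, flash frozen and depleted of ribosomal RNA, was made into stranded TruSeq libraries, per the labels' protocols. The authors deposited raw read counts per Ensembl gene, whole numbers without normalization. Per the submitters' processing notes, cutadapt 1.16, STAR 2.7.6a, featureCounts 1.6.3, DESeq2 1.30.1 and build GRCm38 were used. Whether reads were counted by strand, how shared reads were treated and the annotation release are not stated there. Genes with overlapping exons are therefore named beside the values of Dpm1, Pgm3, Gmppb, Ost4 and Man2a2. Other genes have overlaps not named there, such as Alg1 with Eef2kmt (17.6% of its exon bases) and Alg9 with 1110032A03Rik (12.86%). Names and exons came from GENCODE M21 by Ensembl identifier, which matched 55227 of 55487.

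Samples were grouped by their titles. Genes were kept by filterByExpr (minimum count 10, total 15), scaled by TMM and tested with edgeR 4.0.16 (R 4.3.3; robust quasi-likelihood F test, Benjamini-Hochberg adjustment over 16957 genes, threshold 0.05). SE is the log2 fold change divided by the root of F. Intervals are 95%. The common biological coefficient of variation was 17.4%. Total counts per library were 19232486 to 25729564, and genes with few reads such as Dpm1 have the least precision. No pair of replicates agreed within sampling noise (smallest chi-square per degree of freedom 13.3). The procedure was also run on simulated counts, with planted changes larger than the difference of any member. That run therefore does not show how well differences of the members' size are found, and its outcome is not reported here. Ratios within a library used a pseudocount of 0.5.

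The members and gene lists were chosen with earlier results of these data known. Values per library are given for members with an unadjusted p under 0.05, the 2 with the smallest p of each role, members within 20 Mb of Galt, the 8 other pathway genes with the smallest p, and up to 2 genes of each further list. Of the other pathway genes this rule names, 1 is not reported here. Stt3a, Stt3b, Uap1, Gmppb, Alg12, the named genes of the theca and corpus luteum lists, the named genes with overlapping exons and genes with the stress element were added after their values were seen. Alternatives were other scaling (median of ratios, upper quartile), DESeq2 1.42.0, no filter or a filter of 1 CPM in 3 libraries, a replicate block, each library left out, protein-coding genes only, an adjusted p under 0.1, and, chosen after seeing the data, levels over the longest coding transcript. Figures were drawn with matplotlib 3.10.9.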

Additional observations from a re-analysis of the deposited data

How the results depend on the processing

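No member was called under any alternative run, and the smallest member adjusted p over them was 0.0928, for Pgm3 without GalTKO replicate 2. The number of members at an unadjusted p under 0.05 was 2 to 5 as each library was left out, and the median of the members stayed between -0.03 and 0.02. By role, the median ran from -0.14 without wildtype replicate 2 to -0.04 without wildtype replicate 3 for the cytosolic steps, and from -0.12 without wildtype replicate 2 to 0.00 without GalTKO replicate 3 for trimming and branching. Over all genes, edgeR's 433 calls became 877 without a low-count filter, 260 among protein-coding genes only, 761 at an adjusted p under 0.1 and 1024 with DESeq2. Leaving out each library in turn gave 165 to 742, the lowest without wildtype replicate 2 and the highest without GalTKO replicate 2. Of the 59 other pathway genes, 2 were called by DESeq2, 3 without the filter, 2 at an adjusted p under 0.1, and 0 to 1 as each library was left out. With the replicate number as a replicate block, 321 genes and 0 members were called. Correlations of same-numbered libraries were 0.09, -0.04 and 0.08. GalTKO replicates 1 and 3 correlated best with their own number, and GalTKO replicate 2 with wildtype replicate 1. With so few libraries, these values cannot show whether the numbers pair the samples, and the labels do not state litter. Up to 10 of 40 members changed sign, without GalTKO replicate 2, all of them uncalled. With 3 libraries per genotype, the median 95% interval of a member was 0.23 to either side on the log2 scale.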
